A study of Homo sapiens with 4 samples.

Results

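ES7L is an expansion segment of human 28S rRNA, the long rRNA of the large ribosomal subunit. It was taken here as nt 436 to 1311 of 28S, 876 of the 15984 positions listed in the series and 876 of the 5070 positions of 28S. The limits were set by position alone, not by depth, and stand for the approximate textbook extent of the segment. 28S is cut from the 45S precursor (RNA45SN5), which the RefSeq gene table used here places on no named chromosome, so positions are counted from the first nucleotide of 28S. The reads came from RNA that was recovered with Flag-tagged SIRT7 from HEK293T cells. This established line derives from human embryonic kidney and expresses the large T antigen of SV40. All cells stably overexpressed Flag-SIRT7, at passages 10 to 15. Cell lysates were fractionated into cytosol and nucleus, SIRT7 complexes were captured from each on anti-Flag M2 gel, and RNA freed with proteinase K was sequenced from directional libraries. There were 4 libraries, 2 cytosolic and 2 nuclear, and the question here was where along ES7L the RNA recovered with SIRT7 differed between the compartments. No input RNA or mock capture was analysed here, so the values describe recovered RNA and not enrichment. Nothing in the labels says that the libraries of a fraction came from separate cultures, so the spread behind each p-value is that between 2 libraries of a fraction and may be technical only.

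Expansion segments are stretches that eukaryotic rRNAs carry beyond the core shared with bacteria, and they vary in length between species. ES7L lies in domain II of the large subunit rRNA, where it is among the longest expansion segments in vertebrates. It is very rich in G and C, folds into long hairpin arms that reach out from the solvent side of the subunit, and holds binding surfaces for ribosomal proteins. SIRT7 is an NAD-dependent deacylase found mainly in the nucleolus, the compartment in which the rRNA precursor is made and cut.

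The values are depth, the number of reads that covered a position. Mean depth over all listed positions was 189023 to 211717 reads in the 4 libraries, and ES7L held 108506533 to 131554928 summed reads of depth per library. Relative depth is depth divided by that library's overall mean, so it is a share of the rRNA reads and not an amount of RNA. A share can rise because other sequences fell. ES7L was read in 35 windows of 25 nt, the last of 26 nt, and the windows of all sequences were tested together with limma on log2(relative depth + 0.01). Neighbouring windows share reads and are not independent. The pseudocount of 0.01 stood for 1890 to 2117 reads, and log2 differences of windows below it are far smaller than the ratios of their depth. The table covers rRNA only, so markers of the cell line and the level of SIRT7 were not examined.

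The findings turn on 6 stretches of ES7L, printed 5′ to 3′ in the DNA letters of the deposited table, with runs of 3 or more G or 3 or more C in capitals. The runs of windows that differed between the fractions are given first, with the short stretch that joins the rise and the fall after it. Then come the shallowest and the deepest 50 nt, by mean relative depth over the 4 libraries.
nt 461 to 535, lower in the nucleus: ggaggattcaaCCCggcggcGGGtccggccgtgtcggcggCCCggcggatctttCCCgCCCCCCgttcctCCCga
nt 711 to 810, higher in the nucleus: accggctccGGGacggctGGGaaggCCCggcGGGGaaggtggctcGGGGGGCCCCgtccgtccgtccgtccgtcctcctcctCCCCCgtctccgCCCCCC
nt 811 to 835, with the step that differed most between the fractions: ggCCCCgcgtcctCCCtcGGGaGGG
nt 836 to 910, lower in the nucleus: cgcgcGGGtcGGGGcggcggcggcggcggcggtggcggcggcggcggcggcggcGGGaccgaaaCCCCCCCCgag
nt 586 to 635, shallowest: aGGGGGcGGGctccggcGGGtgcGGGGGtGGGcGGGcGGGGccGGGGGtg
nt 1036 to 1085, deepest: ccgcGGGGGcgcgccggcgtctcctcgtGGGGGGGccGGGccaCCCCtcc

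ES7L as a whole was shallower than the 28S around it and did not pass the test between the fractions. Its mean relative depth was 0.597 and 0.677 in the cytosolic pair and 0.709 and 0.672 in the nuclear pair, and the fractions overlapped. The median over its positions was 0.273 and 0.316 in the cytosolic pair and 0.411 and 0.336 in the nuclear pair, without overlap. By the mean, the nucleus stood 1.09-fold against the cytosol, with a 95% interval of 0.844 to 1.40 and an adjusted p of 0.429 in limma over 12 regions. The rest of 28S stood at 2.64 ± 0.0711 for the cytosol and 2.28 ± 0.00821 for the nucleus (SD, n = 2). ES7L is 17.3% of the length of 28S and held 4.43% and 5.19% of its depth in the cytosolic pair and 6.08% and 5.8% in the nuclear pair.

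Measured against the rest of 28S within each library, ES7L stood higher in both nuclear libraries. The log2 ratio of mean depth, ES7L over the rest of 28S, was -2.17 and -1.93 in the cytosolic pair and -1.69 and -1.76 in the nuclear pair. The difference, 0.33, exceeded the SD of either pair, and the pairs did not overlap. A two-sided exact permutation test gave p = 0.33, the lowest value possible with 2 libraries against 2. Against the stretch of 28S before ES7L the difference was 0.31, and against an equally long stretch directly after ES7L it was 0.30, each with the same exact permutation p of 0.33. Cytosolic replicate 1 had the lowest ratio in each of these comparisons. Without it the difference from the rest of 28S dropped to 0.21, that from the stretch before ES7L to 0.13 and that from the stretch after it to 0.19. Without cytosolic replicate 2 the difference from the stretch before ES7L was 0.48.

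**Figure D1:**
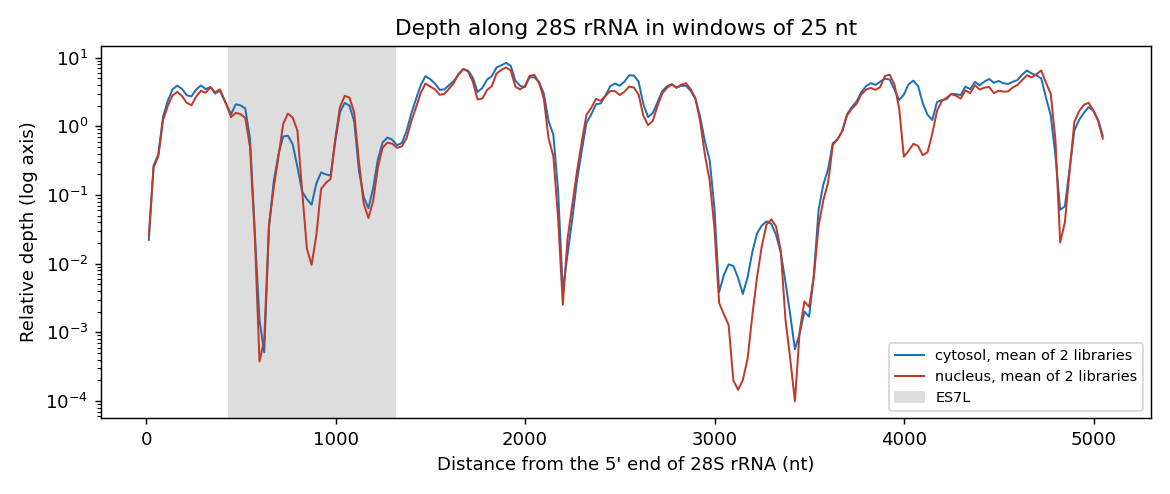
Relative depth (log axis) in windows of 25 nt along 28S, in nt from its 5′ end, as the mean of the 2 libraries of each fraction, with ES7L shaded. Depth in ES7L ran from under 0.001 at nt 611 to 635 to above 2 at nt 1036 to 1085, and the lines cross within it.

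Depth along ES7L followed the same outline in all 4 libraries, with 4 deep stretches separated by 3 shallow ones. Deep was taken as at or above 0.1 of the library mean, a level chosen after the values were seen. All 4 libraries were deep at nt 436 to 562, at nt 674 to 818, at nt 923 to 1130 and at nt 1210 to 1311. In cytosolic replicate 1 the second stretch reached as far as nt 847 and the third began at nt 885, with a further 11 positions just above the level from nt 1147. Positions at or above this level made up 79.2% and 74.0% of ES7L in the cytosolic pair and 70.2% and 67.1% in the nuclear pair. Over the 876 positions the rank correlation of depth was 0.995 between the cytosolic libraries, 0.996 between the nuclear ones, and 0.944 to 0.964 between fractions. These are descriptions across positions that share reads.

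**Figure D2:**
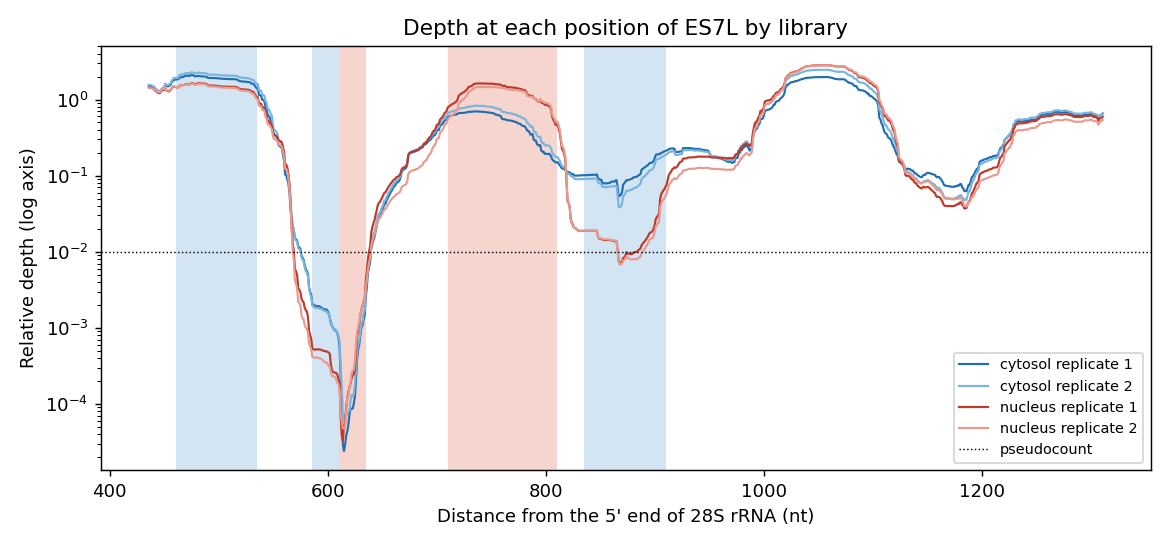
Relative depth (log axis) at each position of ES7L in the 4 libraries, in nt from the 5′ end of 28S. Red bands mark windows higher in the nucleus and blue bands windows lower in the nucleus by limma, and the dotted line is the pseudocount of 0.01.

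The first shallow stretch was the deepest trough, with hardly a read over its centre. Depth dropped to 5 reads at nt 615 in cytosolic replicate 1, and at nt 614 to 13 reads in cytosolic replicate 2 and to 7 and 9 reads in the nuclear libraries. It fell steeply in every library at nt 566, where the log2 ratio of the 10 nt from that point on over the 10 nt before it was -2.51 and -2.71 in the cytosolic pair and -3.18 and -3.16 in the nuclear pair. The sequence at nt 586 to 635 is 70% G and holds 8 of the 41 runs of 3 or more G in ES7L, and no run of 3 or more C. At its 5′ side, nt 561 to 585 had a relative depth of 0.0268 and 0.0323 in the cytosolic pair and 0.0289 and 0.0249 in the nuclear pair, which did not pass the test (log2 difference -0.10, adjusted p = 0.588 in limma). With the median over positions in place of the mean it was lower in the nucleus, at -0.75 (adjusted p = 9.2e-04 in limma).

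By the mean of the 4 libraries, the highest depth in ES7L lay in the third deep stretch. In cytosolic replicate 1 the highest position was nt 475, in the first deep stretch, at a relative depth of 2.11. At nt 1036 to 1060 relative depth was 1.96 and 2.43 in the cytosolic pair and 2.78 and 2.77 in the nuclear pair. At nt 1061 to 1085 it was 1.77 and 2.21 in the cytosolic pair and 2.60 and 2.62 in the nuclear pair. Both nuclear libraries were above both cytosolic ones, and cytosolic replicate 1 was the lowest. Neither window passed the test, with log2 differences of 0.35 (SE 0.12, adjusted p = 0.0783 in limma) and 0.40 (SE 0.12, adjusted p = 0.0608). With the replicate number as a block both passed. Without cytosolic replicate 1 the log2 differences were 0.19 and 0.24, and without cytosolic replicate 2 they were 0.50 and 0.56. Leaving out nuclear replicate 1 gave 0.34 and 0.40, and leaving out nuclear replicate 2 gave 0.35 and 0.39. Such fits leave 1 library in a fraction, which has no spread, so only sizes are given. The other window among the 3 deepest was nt 461 to 485, at 2.01 and 2.18 in the cytosolic pair and 1.58 and 1.56 in the nuclear pair.

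Between the fractions, 12 of the 35 ES7L windows passed the test, 5 higher and 7 lower in the nucleus. Over all sequences 284 of 525 tested windows passed, which is 54.1%, with 36.8% higher and 17.3% lower. These include the mitochondrial intervals, which as regions were 59.4-fold and 136-fold higher in the nucleus. With the 45S precursor fitted alone, 99 of 420 windows were higher and 96 lower, with 7 and 7 in ES7L. Of the 167 windows of 28S outside ES7L, 4.19% were higher and 43.1% lower, against 14.3% and 20.0% in ES7L. The share of ES7L windows that passed, 34.3%, was below the 54.1% of all windows and the 47.3% of the rest of 28S, and these differences were not tested. The median log2 difference was -0.17 in ES7L, -0.19 in the rest of 28S and 0.01 over all tested windows. In 28 of the 35 ES7L windows the fractions did not overlap, as in 81.1% of all tested windows.

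The split between higher and lower windows depended on the scaling. Before the pseudocount was added, scaling by the median of ratios shifted all log2 ratios of nucleus over cytosol by -0.22. It gave 5 higher and 15 lower windows in ES7L, with 154 higher and 133 lower among all 525 windows. Scaling to the mean of 28S shifted these ratios by 0.19, again before the pseudocount. It gave 7 higher and 4 lower in ES7L, with 216 and 50 among all windows. Windows near or below the pseudocount moved by other amounts. With scaling to 28S the log2 difference at nt 861 to 885 went from -2.06 to -1.48. Scaling to the mean of ES7L itself, which leaves only its shape, gave 5 higher and 9 lower in ES7L, with 167 and 81 among all windows. The 3 higher windows from nt 736 to 810 passed in every alternative that kept windows of 25 nt and all 4 libraries. The 3 lower windows from nt 836 to 910 did so as well, and no direction changed. Leaving out each library in turn gave log2 differences of 0.93 to 1.89 in these higher windows. In these lower windows it gave -2.26 to -1.79.

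**Figure D3:**
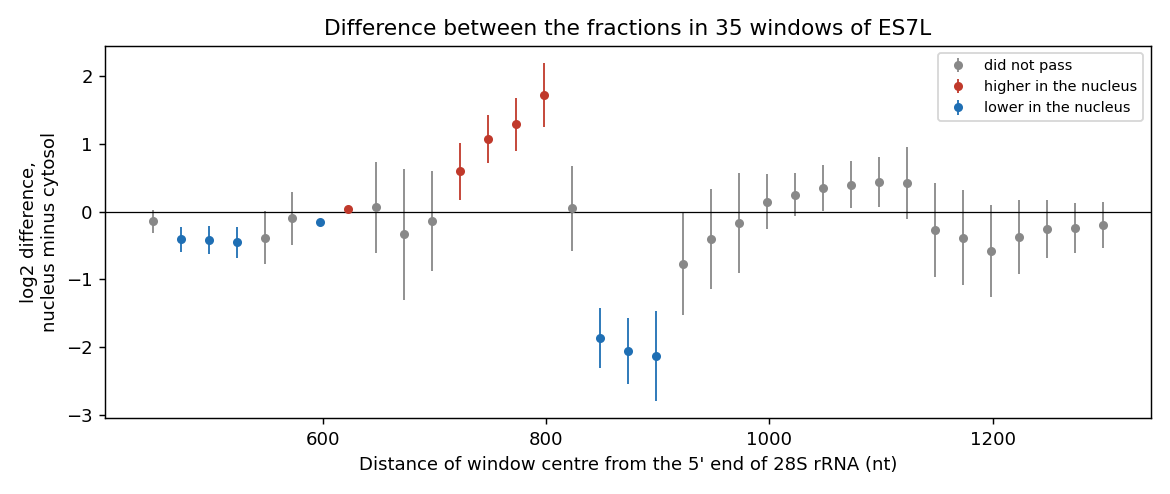
Log2 difference, nucleus minus cytosol, in the 35 windows of ES7L with 95% intervals from limma, against the distance of the window centre from the 5′ end of 28S. A run of 4 windows higher in the nucleus is followed, after 1 window near 0, by a run of 3 windows that are lower.

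The rise lay in the second deep stretch, at nt 711 to 810, and grew toward its 3′ end. At nt 711 to 735 relative depth was 0.660 and 0.761 in the cytosolic pair and 1.19 and 0.968 in the nuclear pair, 1.52-fold higher. At nt 736 to 760 it was 0.663 and 0.795 in the cytosolic pair and 1.61 and 1.45 in the nuclear pair, 2.10-fold higher. Nuclear libraries were above cytosolic ones in both windows without overlap.

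At nt 761 to 785, where the sequence repeats the letters GTCC, relative depth was 0.488 and 0.610 in the cytosolic pair and 1.39 and 1.30 in the nuclear pair, 2.45-fold higher. At nt 786 to 810, a stretch of C and T with few G, it was 0.227 and 0.289 in the cytosolic pair and 0.854 and 0.880 in the nuclear pair, 3.36-fold higher. Depth declined along these windows in both fractions, and by a larger factor in the cytosol. The log2 differences of the 4 windows were 0.59 (SE 0.15), 1.06 (SE 0.13), 1.28 (SE 0.14) and 1.72 (SE 0.17), and limma gave adjusted p-values of 0.0340, 0.00418, 0.00337 and 0.00248. The call at nt 711 to 735 ended with a pseudocount of 0.1, with no filter on low depth and without a variance trend. Leaving out each library in turn gave log2 differences of 0.44 to 0.74 there. Over the whole 100 nt the cytosol had a relative depth of 0.562 ± 0.0738 and the nucleus one of 1.21 ± 0.0774 (SD, n = 2), 2.15-fold higher.

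Directly after the rise the order of the fractions turned over within a few nucleotides. At nt 811 relative depth was 0.150 and 0.175 in the cytosolic pair and 0.461 and 0.507 in the nuclear pair. At nt 818 it was 0.119 and 0.124 in the cytosolic pair and 0.160 and 0.176 in the nuclear pair, and at nt 819 it was 0.115 and 0.114 against 0.0904 and 0.0974. The nuclear libraries were the higher pair at nt 818 and the lower pair at nt 819.

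By nt 830 the depth was 20880 and 17716 reads in the cytosolic pair and 4004 and 3589 reads in the nuclear pair, a relative depth of 0.101 and 0.0896 against 0.0189 and 0.0190. The step at nt 820, the log2 ratio of the 10 nt from that position on over the 10 nt before it, was -0.30 and -0.53 in the cytosolic pair and -2.95 and -3.08 in the nuclear pair. The difference of -2.60 was the largest in size among 6901 scanned positions of 18S and 28S. It is a description, with no test. The window that holds the step, nt 811 to 835, averaged 0.113 and 0.111 in the cytosolic pair and 0.111 and 0.121 in the nuclear pair, so its mean hid the step (log2 difference 0.05, adjusted p = 0.878 in limma). With the median over positions in place of the mean the same window was lower in the nucleus by -1.62 on the log2 scale (adjusted p = 0.0042 in limma).

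**Figure D4:**
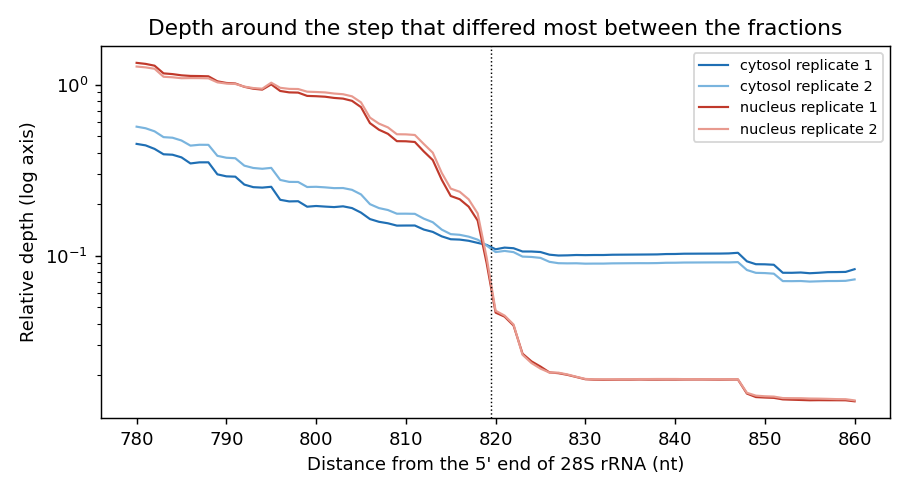
Relative depth (log axis) by position around nt 820, marked by the dotted line, in the 4 libraries. The nuclear lines drop from above to below the cytosolic lines at nt 819 and reach 0.0189 and 0.0190 at nt 830, while the cytosolic lines stay near 0.1.

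All 3 windows from nt 836 to 910, which lie in the second shallow stretch or at its end, were lower in the nucleus. At nt 836 to 860 relative depth was 0.0923 and 0.0820 in the cytosolic pair and 0.0166 and 0.0168 in the nuclear pair, 5.23-fold lower. At nt 861 to 885, which is nearly all GGC repeats, it was 0.0826 and 0.0620 in the cytosolic pair and 0.010 and 0.00917 in the nuclear pair, 7.53-fold lower. At nt 886 to 910, which ends the repeats, it was 0.160 and 0.133 in the cytosolic pair and 0.0289 and 0.0225 in the nuclear pair, 5.71-fold lower.

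The 2 fractions lay far apart in these 3 windows, with libraries of one fraction close to each other. Their log2 differences were -1.86 (SE 0.16), -2.06 (SE 0.17) and -2.13 (SE 0.24), and limma gave adjusted p-values of 0.00161, 0.00157 and 0.00347. Nuclear depth lay at the pseudocount at nt 861 to 885 and not far above it in the other windows. The log2 differences of all 3 windows therefore understate the ratios of depth. With a pseudocount of 0.001 they were -2.32, -2.78 and -2.47, with the largest at nt 861 to 885. The stretch is 90.7% G+C, with 54.7% G. Over its 75 nt the cytosol had a relative depth of 0.102 ± 0.0137 and the nucleus one of 0.0173 ± 0.00167 (SD, n = 2), 5.89-fold lower.

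In the first deep stretch a run of 3 windows, nt 461 to 535, was lower in the nucleus by a smaller factor. Over its 75 nt relative depth was 1.88 and 2.07 in the cytosolic pair and 1.48 and 1.45 in the nuclear pair, 1.35-fold lower without overlap. The windows at nt 486 to 510 and nt 511 to 535 had log2 differences of -0.42 (SE 0.07, adjusted p = 0.0131 in limma) and -0.45 (SE 0.08, adjusted p = 0.0135), and nt 461 to 485 had -0.41 (SE 0.07, adjusted p = 0.00989). Scaling to 28S ended all 3 calls, with log2 differences of -0.22, -0.23 and -0.26, so the run was not distinguished from 28S as a whole. The other alternatives with windows of 25 nt and all 4 libraries kept them. Leaving out each library in turn gave log2 differences of -0.53 to -0.35.

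The remaining 2 calls were in the trough and at depths far below the pseudocount. At nt 586 to 610 mean depth was 319 and 293 reads in the cytosolic pair and 90.3 and 61.7 reads in the nuclear pair, 4.01-fold lower in relative depth (log2 difference -0.15, adjusted p = 2.95e-04 in limma). At nt 611 to 635 it was 95.4 and 111 reads in the cytosolic pair and 164 and 145 reads in the nuclear pair, 1.51-fold higher in relative depth (log2 difference of 0.04, adjusted p = 0.0151 by limma). The call at nt 611 to 635 ended with window medians, without a variance trend and with a minimum depth of 100. Without cytosolic replicate 1 its log2 difference was 0.028. The call at nt 586 to 610 ended with a cubic in G+C removed.

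The other 23 windows did not pass. The first window, nt 436 to 460, had a log2 difference of -0.15, and nt 536 to 560 had -0.39. On the way out of the trough, from nt 636 to 710, 3 windows had differences of -0.34 to 0.06 and overlapped between the fractions. From nt 911 to 1110 the differences ran from -0.78 at the start, directly after the second fall, to 0.44 at the end. From nt 1111 to 1311 the log2 differences ran from -0.58 to 0.42, and the nuclear pair lay on 1 side of the cytosolic pair in each window. Such a lack of overlap was common, at 81.1% of all tested windows.

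The depth of ES7L was distributed differently along its length in the fractions. ES7L was divided into 4 parts of equal length. The first, nt 436 to 654, held 37.2% and 35.9% of ES7L depth in the cytosolic pair and 25.7% and 26.5% in the nuclear pair. The second part, nt 655 to 873, held 13.5% and 13.7% in the cytosolic pair and 23.3% and 21.8% in the nuclear pair. The parts are set by position, and libraries of one fraction were within 2 percentage points of each other in each of them.

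The third part, nt 874 to 1092, held 33.09% and 35.02% in the cytosolic pair and 36.7% and 37.7% in the nuclear pair, and the last part 16.3% and 15.4% against 14.3% and 14.1%. The mean position weighted by depth was nt 824 and nt 829 in the cytosol and nt 856 in both nuclear libraries. No part overlapped between the fractions, and a two-sided exact permutation test gave p = 0.33 for each part and for the mean position. The first part differed by -10.5 percentage points and the second by 8.94, the third by 3.15 and the last by -1.64. With square roots of depth, which give less weight to the deepest positions, the third part differed by 0.145 percentage points and overlapped between the fractions (exact permutation p = 1).

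**Figure D5:**
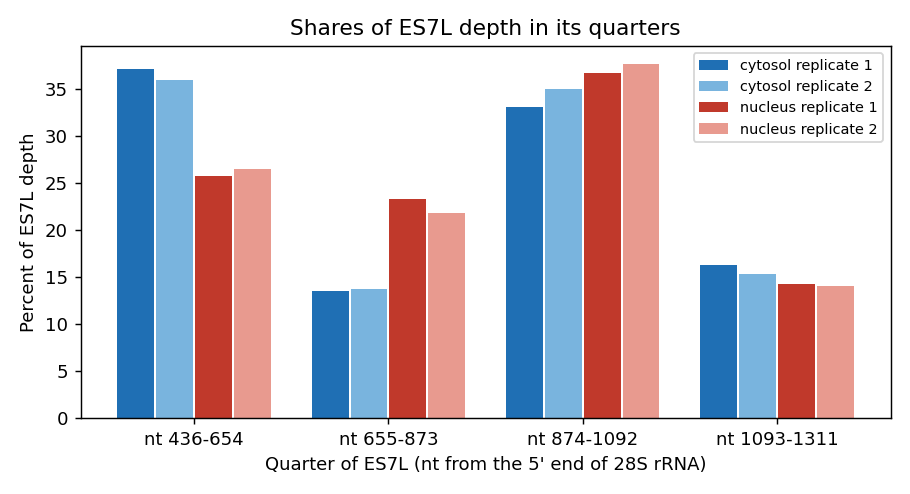
Percent of summed ES7L depth in each of 4 equal parts of ES7L, with 1 bar per library. The nuclear bars are lower than the cytosolic ones in the first and last parts and higher in the middle parts, without overlap.

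The sequence of ES7L is 83.1% G+C, against 66.6% in the rest of 28S. Among windows of 80% to under 90% G+C, the 22 of ES7L had a median relative depth of 0.549 and the 31 elsewhere in 28S one of 0.492, with ranges of 0.000944 to 2.49 and 0.000333 to 4.78. Among windows of 70% to under 80% G+C, the 6 of ES7L had a median of 1.23 and the 25 elsewhere one of 2.37. At 90% or more, the 6 of ES7L had a median of 0.0963 and the 18 elsewhere one of 0.0447. Under 70%, the only window of ES7L stood at 0.167 and the 93 elsewhere had a median of 3.53. Depth within ES7L thus varied widely at like G+C content. Across the 35 windows of ES7L, G+C percent and log2 mean relative depth had Pearson's r = -0.41 and Spearman's rho = -0.39, and G+C percent and the log2 ratio of nucleus over cytosol had r = -0.22 and rho = -0.01. These correlations describe neighbouring windows that share reads and base composition.

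The letters GGG were searched on the RNA strand only, where CCC marks the same letters on the opposite strand. GGG occurred in 22 of 35 windows of ES7L (62.9%) and in 49.1% of windows elsewhere in 28S, and CCC in 25 of 35 (71.4%) and in 43.1%. In ES7L the windows with GGG had a median relative depth of 0.234 and those without it 0.562, and the windows with CCC had 0.562 and those without it 0.113. In the rest of 28S the windows with GGG had 2.24 and those without it 2.69, and the windows with CCC had 1.34 and those without it 3.14. The 2 shallowest windows, nt 586 to 610 and nt 611 to 635, had GGG and no CCC. So did the deepest window, nt 1036 to 1060, while nt 561 to 585, also among the 3 shallowest, had CCC and no GGG. With and without a match are descriptions of letters in a window and not of a structure.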

How the data were processed

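The authors deposited coverage, the number of reads over each position of 5S, the 45S precursor (RNA45SN5, matched by accession, without its version, in a RefSeq gene table) and 2 mitochondrial intervals, per the file headers, as raw whole numbers. The submitters' processing notes name cutadapt 1.5, Bowtie2 2.2.6 and SAMtools. Their settings, the read filters and strand use were not given in the sources used here. Reads from different rDNA copies cannot be told apart. The start of 28S came from the RefSeq table and was checked by sequence. Windows of 25 nt restarted at both ends of ES7L, and 525 of 639 passed a filter (mean depth 10 or more in 2 or more libraries) and were tested with limma 3.58.1 in R 4.3.3 (eBayes with trend, two-sided, Benjamini-Hochberg over all tested windows, threshold 0.05). The fit was also run on simulated windows, drawn independently and with their spreads shuffled among them. Neighbouring windows here share reads, so that run cannot show how the fit performs on them. Named windows were, among those past the threshold without overlap, the 5 largest rises and 5 largest falls, then the 3 deepest and 3 shallowest, and those at the 2 steps with the largest difference between fractions. Members, tests and lists were chosen with earlier results of these data known.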

Additional observations from a re-analysis of the deposited data

How the results depend on the processing

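The count of higher ES7L windows, 5 of 35, was 8 with a pseudocount of 0.001, 8 with a cubic in G+C removed, 3 without a variance trend, and 2 of 18 and 2 of 8 with windows of 50 and 100 nt. The higher windows over all sequences, 193 of 525, were then 227 with this pseudocount and 160 without a variance trend. With windows of 50 and 100 nt they were 98 of 265 and 53 of 136. The fit with the cubic in G+C was made on the 45S precursor only, where 123 of 420 windows were higher. Without the cubic, the 45S precursor alone gave 99 of 420 higher, with 7 in ES7L. The count of lower ES7L windows, 7, was 15 with the median of ratios and 4 with scaling to 28S. It was 5 of 18 and 1 of 8 with windows of 50 and 100 nt, which are fewer windows by construction. The lower windows over all sequences, 91 of 525, were then 133 and 50 of 525, 51 of 265 and 24 of 136. The windows of 100 nt did not restart at the ends of ES7L, and those lying mostly in ES7L were counted as its windows. With the replicate number as a block, 8 ES7L windows were higher and 7 lower, with 186 and 97 among all 525 windows. The labels do not say that the number pairs libraries, and deviations of same-numbered libraries had a correlation of 0.10 over 525 windows. The block changed no other result. The difference of ES7L as a region turned to -0.10 with the median of ratios, from 0.12, and was 0.31 with scaling to 28S and 0.34 with medians over positions, none past the threshold. At nt 561 to 585 the difference turned to 0.032 with scaling to 28S, and leaving out each library in turn gave -0.20 to 0.0018. With window medians it was -0.75 and passed. At nt 811 to 835 it turned to -0.15 with the median of ratios, -0.063 with scaling to ES7L, and -1.62 with window medians, and leaving out each library gave -0.0079 to 0.10. The causes were not tested. The ratios to other parts of 28S and the shares of the 4 parts of ES7L kept their direction in every alternative run, but not their size. With medians over positions the log2 differences from the rest of 28S, the stretch before and the stretch after ES7L were 0.55, 0.52 and 0.59. With square roots of depth the parts differed by -3.41, 4.31, 0.145 and -1.05 percentage points, and the mean position by 6.10 nt in place of 29.9. In the trough at nt 586 to 635 depth limits what can be read.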

Other observations

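Smaller steps that differed between the fractions without overlap lay elsewhere in ES7L and are given as values. At nt 905, where depth climbs out of the second shallow stretch, the step was 0.31 and 0.39 in the cytosolic pair and 1.35 and 1.21 in the nuclear pair. At nt 569, on the way into the trough, it was -2.12 and -2.44 in the cytosolic pair and -3.08 and -3.05 in the nuclear pair. At nt 1124, after the deepest stretch, it was -0.86 and -1.19 in the cytosolic pair and -1.61 and -1.62 in the nuclear pair. By size of the difference these ranked 57, 87 and 134 among 6901 scanned positions of 18S and 28S, of which neighbouring positions share most of their reads.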
